A study of Mus musculus with 6 samples.

Results

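The plasma cell program was followed in the kidney of lupus-prone mice through 8 genes, Prdm1, Xbp1, Pou2af1, Jchain, Mzb1, Derl3, Fkbp11 and Sdc1. They were taken by name from the annotation of the array, of 36870 genes in all, with every probe that carries 1 of these names. This gave 12 probes among 56605. All 12 lay well above background on all 6 arrays, so none was lost to the filter on dim signals. TA was performed on whole kidneys of female mice at 6 months of age, with 3 MRL/MpJ mice (MRL) as controls and 3 MRL/MpJ-Fas lpr/lpr mice (LPR) as the diseased group, 1 array per mouse and no pooling. Both groups share the MRL/MpJ background, and the labels give no treatment. The lpr allele carries a transposable element inserted in an intron of Fas in every cell of the body, so the strain is no model of plasma cells alone. The study asked which cells and signals make up the lymphoid tissue around the renal vessels of such mice.

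A B cell that has met its antigen can become a plasma cell, which secretes antibody at a high rate. In this step the repressor PRDM1 shuts down genes of the B cell state, XBP1 enlarges the endoplasmic reticulum (ER), and the cell gains syndecan-1 on its surface. Newly made antibody chains are folded, joined and checked in the ER, with chaperones, the J chain and a degradation route for misfolded chains. In lupus, plasma cells are known as the source of autoantibodies and are found in inflamed kidneys.

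LPR kidneys held more signal of 6 of the 8 genes than MRL kidneys. Pou2af1 rose 38.8-fold, Jchain 22.5-fold, Mzb1 20.4-fold, Derl3 7.95-fold, Prdm1 4.43-fold and Sdc1 1.99-fold. Xbp1 and Fkbp11 did not pass the test. By probe, 7 of 12 were higher, 0 were lower and 5 did not pass, where 6.53% of all 39924 tested probes were higher. With the brightest probe standing for a gene, 7.12% of 25805 tested genes were higher, 5.47% were lower, and 1.38% were raised at least 10-fold, as 3 of the 8 genes were. The median log2 change was 2.57 over the 8 genes and -0.12 over all tested genes. In RNA from whole kidney, more cells of a type and more RNA per cell cannot be told apart.

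**Figure D1:**
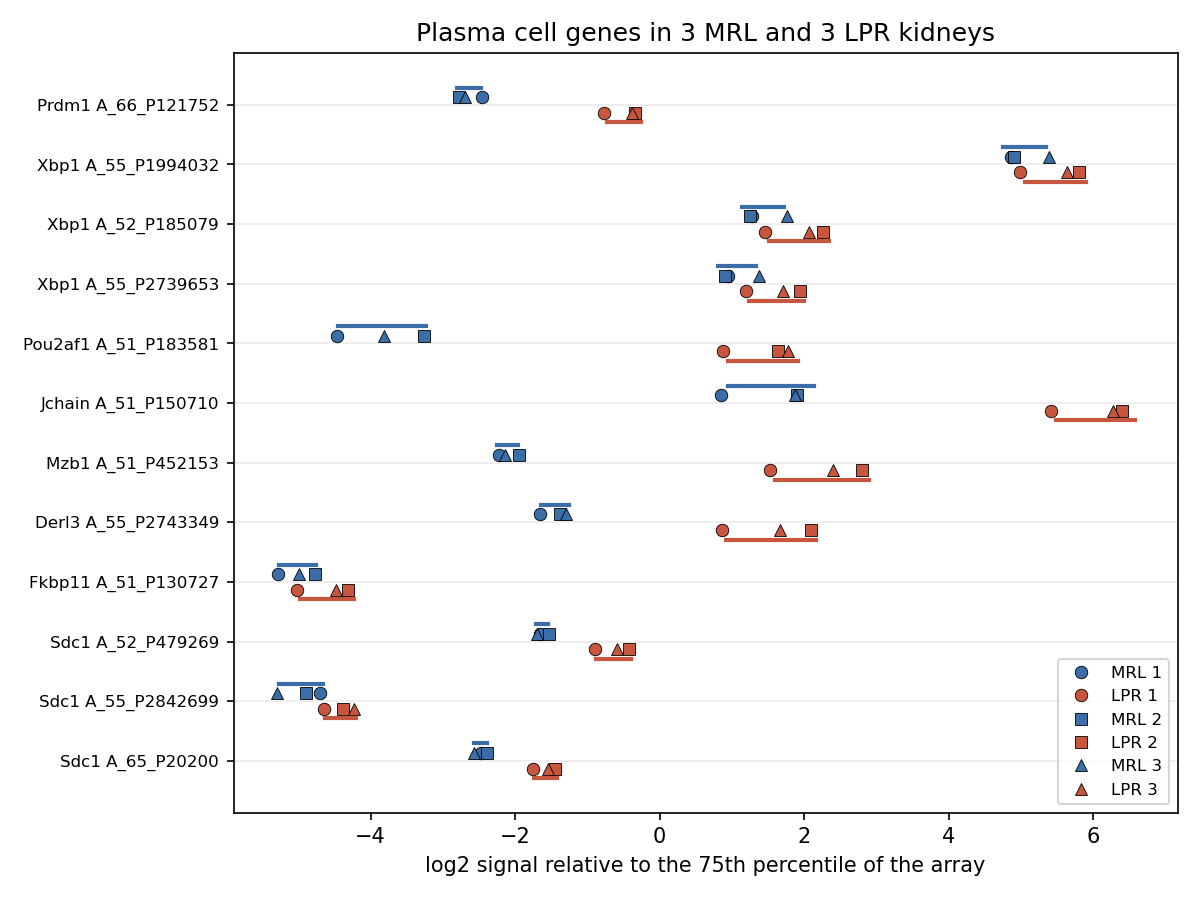
Log2 signal relative to the 75th percentile of the array (horizontal axis) for each of the 12 probes (vertical axis) in 3 MRL mice (blue) and 3 LPR mice (red), with a symbol for each mouse and a bar for the mean ± SD of each group. The groups lie apart for Pou2af1, Jchain, Mzb1, Derl3, Prdm1 and all 3 Sdc1 probes, the dimmest of them by 0.05, and overlap for Xbp1 and Fkbp11.

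Values of single mice are given below as log2 signals relative to the 75th percentile of the array, in the order of mice 1, 2 and 3, and a change is LPR minus MRL with its standard error (SE). Adjusted p-values are those of limma over all tested probes, with a threshold of 0.05. Levels are compared between mice for 1 probe at a time, since signals of different probes do not rank transcripts. The arrays measured 69.6% to 73.5% of spots well above background, and no spot was saturated. Kidney genes were bright on every array. The mean log2 level over 10 tubule genes was 5.80 to 5.84 in MRL mice and lower, 5.42 to 5.51, in LPR mice. Of the 2 Fas probes, the brighter one changed by -0.47 (SE 0.24, limma adjusted p = 0.234), and the other was not well above background in any MRL mouse and at least 1.47-fold higher in LPR mice. Their place relative to the inserted element was not determined, so they do not check the labels.

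Among the regulators, Prdm1 encodes the repressor that drives B cells into the plasma cell state. Its probe, A_66_P121752, gave -2.46, -2.78 and -2.69 in MRL mice and -0.76, -0.34 and -0.38 in LPR mice. Each LPR mouse lay above each MRL mouse, by at least 1.69 on the log2 scale. The change was 2.15 (SE 0.16), a 4.43-fold rise (limma adjusted p = 0.00023).

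Xbp1 encodes the transcription factor that is made active by splicing of its mRNA when the ER is loaded, and that switches on genes of folding and secretion. Whether the probes tell the spliced from the unspliced form was not determined. Because the absence of a call rests on the agreement of 3 probes at 3 places of 1 transcript, the first 30 of their 60 bases are shown, from the array annotation, all on the plus strand of chromosome 11 in mm9, at 5425816 to 5425875, 5424970 to 5425029 and 5424869 to 5424928.
Xbp1 A_55_P1994032: ttcttgctagtgtagcttctagaaggtgct
Xbp1 A_52_P185079: cctctaagctcttcagaagaggatcaccct
Xbp1 A_55_P2739653: aactcattcgttttggccatgtatacacca

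The brightest Xbp1 probe, A_55_P1994032, gave 4.86, 4.91 and 5.39 in MRL mice and 5.0, 5.80 and 5.64 in LPR mice. LPR 1 lay below MRL 3, so the groups overlapped. The change was 0.42 (SE 0.24, 95% confidence interval -0.15 to 1.0, limma adjusted p = 0.28), an interval that runs from 0.90-fold to 2.01-fold. A_52_P185079 gave 1.29, 1.25 and 1.77 in MRL mice against 1.46, 2.26 and 2.07 in LPR mice, a change of 0.49 (SE 0.24, limma adjusted p = 0.22). With this probe too LPR 1 lay below MRL 3. A_55_P2739653 changed by 0.54 (SE 0.22, limma adjusted p = 0.155), from 0.95, 0.90 and 1.38 to 1.2, 1.95 and 1.71. In all 3 probes the lowest LPR mouse was LPR 1 and the highest MRL mouse was MRL 3. Before the arrays were brought to a common 75th percentile, the intensities of the brightest probe did not overlap, with 21360, 21440 and 29580 in MRL mice and 30040, 41160 and 37760 in LPR mice. The 75th percentile of LPR 1, 942, was the highest of the 6 arrays, where the others had 706 to 759. Left unshifted, the 3 probes changed by 0.59 to 0.71 and still did not pass (limma adjusted p = 0.141, 0.101 and 0.0590), a setting that was chosen after the data were seen.

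Pou2af1 (OCA-B, BOB.1) encodes the coactivator that B lineage cells recruit to octamer sites with the factors POU2F1 and POU2F2. Its promoter is shown because it holds the letters TGACGTGG, the unfolded protein response element known to bind XBP1 and ATF6, here in capitals at bases 190 to 197 of the 250 bases before the start (RefSeq, GRCm38.p6, chr9:51213440-51213689, plus strand).
Pou2af1: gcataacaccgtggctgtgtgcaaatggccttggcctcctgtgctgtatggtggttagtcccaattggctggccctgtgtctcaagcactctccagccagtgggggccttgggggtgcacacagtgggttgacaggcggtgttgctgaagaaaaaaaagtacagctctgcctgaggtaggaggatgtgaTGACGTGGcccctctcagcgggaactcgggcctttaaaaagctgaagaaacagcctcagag

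Of 32851 promoters of the same length searched on both strands, 0.676% hold these letters. The match is a description of the window and not a bound site. The Pou2af1 probe, A_51_P183581, gave -4.47, -3.26 and -3.81 in MRL mice and 0.88, 1.64 and 1.78 in LPR mice. No other gene of the 8 had so large a change, and its lowest LPR mouse lay 4.13 above its highest MRL mouse on the log2 scale. The change was 5.28 (SE 0.35), a 38.8-fold rise with a 95% interval of 21.7-fold to 69.3-fold (limma adjusted p = 0.00016). It ranked 109th of 25805 genes by size of rise. Of the factors that it joins, Pou2f2 rose 5.27-fold by its brightest probe (log2 change 2.40, SE 0.19, limma adjusted p = 0.00032), while a second Pou2f2 probe gave 0.76 (limma adjusted p = 0.176). The widely expressed Pou2f1 gave a change of -0.03 (limma adjusted p = 0.91). Set against the mean of both factors, Pou2af1 changed by 4.09 more on the log2 scale, with no overlap of the groups (exact permutation test, two-sided, p = 0.1, the smallest that 3 against 3 mice allow). It was 1 of 4 such differences from relatives, and adjusted over the 4 no p was under 0.133.

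Of the genes for antibody assembly, Jchain encodes the joining chain of polymeric IgM and IgA. Its probe, A_51_P150710 (chromosome 5, 88949919 to 88949978, minus strand, mm9), gave 0.85, 1.90 and 1.88 in MRL mice and 5.41, 6.41 and 6.28 in LPR mice. MRL 1 was the lowest mouse, about 1 log2 unit under the other MRL mice, and the groups stood 3.51 apart. The change was 4.49 (SE 0.37), a 22.5-fold rise (limma adjusted p = 0.0004). Mzb1 encodes an ER protein of B lineage cells that assists the assembly and secretion of IgM. Its probe, A_51_P452153 (chromosome 18, 35807187 to 35807246, minus strand, mm9), gave -2.22, -1.95 and -2.14 in MRL mice and 1.53, 2.81 and 2.41 in LPR mice. The MRL mice lay closer together (SD 0.14, n = 3) than the LPR mice (SD 0.65, n = 3). The change was 4.35 (SE 0.31), a 20.4-fold rise (limma adjusted p = 0.00021).

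The order of the mice was shared by most of the genes. LPR 1 was the lowest LPR mouse in all 12 probes and LPR 2 was the highest in 10 of 12. These 12 probes stand for 8 genes, and the share of all tested probes with this order was not determined. The array of LPR 1 also had the highest 75th percentile subtracted (942). Before the common shift LPR 1 was the lowest in 10 of 12. The name of each array scan ends in 2 numbers. The first was 1 for the 3 MRL mice and LPR 1, and 2 for LPR 2 and LPR 3. It was taken here as the column of the slide, which the sample labels do not give. The low values of LPR 1 and its place on the slide thus cannot be told apart. Within the shared column, LPR 1 exceeded the mean of the MRL mice by 4.72 for Pou2af1, 3.87 for Jchain, 3.64 for Mzb1, 2.31 for Derl3, 1.88 for Prdm1 and 0.73 for the brightest Sdc1 probe, on the log2 scale. The same difference was -0.06 for the brightest Xbp1 probe and -0.01 for Fkbp11. With the slide column in the fit, Pou2af1, Jchain, Mzb1, Derl3 and Prdm1 passed and Sdc1 did not (limma adjusted p = 0.061 for its brightest probe and 0.057 for A_65_P20200).

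**Figure D2:**
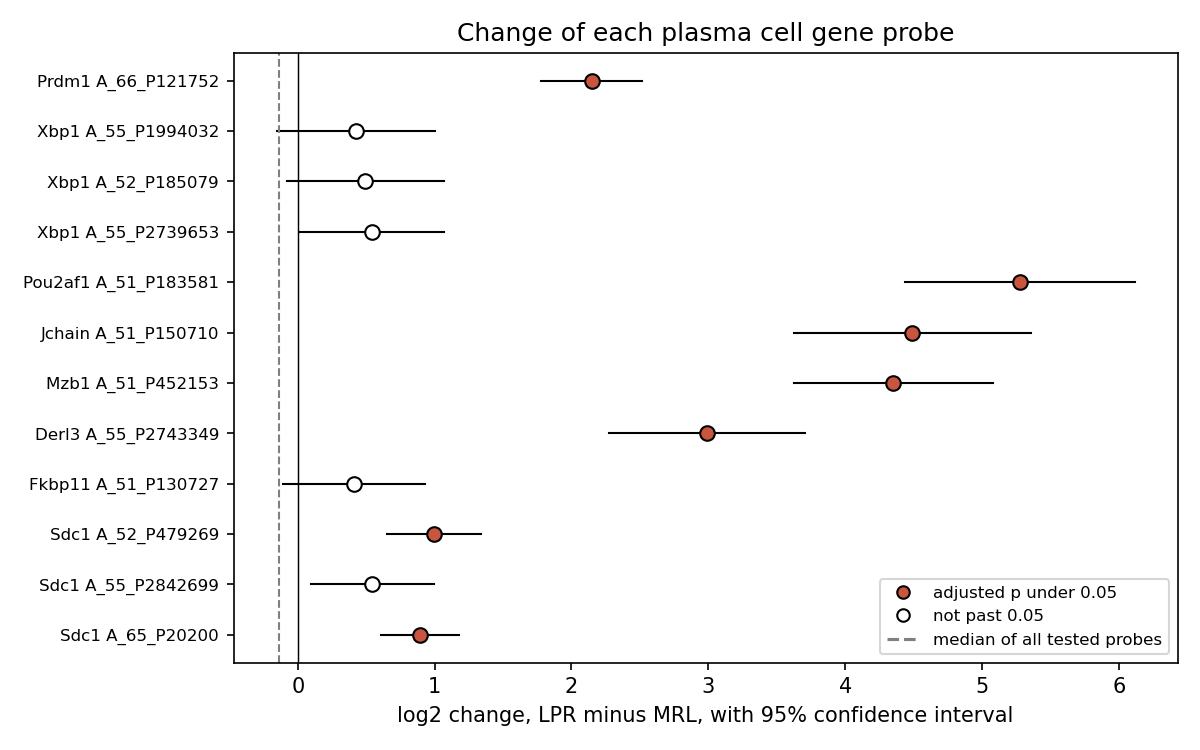
Log2 change, LPR minus MRL, with the 95% confidence interval of limma (horizontal axis) for each of the 12 probes (vertical axis), filled where the adjusted p is under 0.05, with a dashed line at the median of all tested probes, -0.14. The changes run from 0.41 for Fkbp11 to 5.28 for Pou2af1, and 7 of 12 probes are filled.

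For the ER genes, Derl3 encodes a derlin, a membrane protein that passes misfolded chains out of the ER for degradation. Its promoter and that of Hspa5, the gene of the main ER chaperone BiP, are shown because both hold the ER stress element, CCAAT followed after 9 bases by CCACG, a pair of motifs known to be read by NF-Y with ATF6 or XBP1. It is in capitals, on the minus strand at bases 95 to 113 for Derl3 (RefSeq, GRCm38.p6, chr10:75893148-75893397, plus strand) and on the plus strand at bases 186 to 204 for Hspa5 (chr2:34771840-34772089, plus strand).
Derl3: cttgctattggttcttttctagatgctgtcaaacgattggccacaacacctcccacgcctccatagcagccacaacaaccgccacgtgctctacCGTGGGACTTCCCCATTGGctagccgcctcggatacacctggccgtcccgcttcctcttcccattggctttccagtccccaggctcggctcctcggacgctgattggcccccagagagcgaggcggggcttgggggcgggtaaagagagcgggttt
Hspa5: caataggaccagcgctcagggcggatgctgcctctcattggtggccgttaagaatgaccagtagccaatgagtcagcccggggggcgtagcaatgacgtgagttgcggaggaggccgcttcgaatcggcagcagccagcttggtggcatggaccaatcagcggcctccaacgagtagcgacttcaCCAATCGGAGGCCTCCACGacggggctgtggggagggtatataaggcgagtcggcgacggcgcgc

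Of all promoters of this length, 0.119% hold the element. The Derl3 probe, A_55_P2743349, gave -1.66, -1.38 and -1.30 in MRL mice and 0.87, 2.10 and 1.66 in LPR mice. The groups stood 2.16 apart on the log2 scale, with LPR 1 nearest to the MRL mice. The change was 2.99 (SE 0.30), a 7.95-fold rise (limma adjusted p = 0.0011). Hspa5, with the same element, gave 5.48, 5.61 and 5.73 in MRL mice and 5.30, 5.81 and 5.84 in LPR mice, a change of 0.04 (SE 0.17, limma adjusted p = 0.89). The other derlins, which most cells use, also stayed within their spread, with changes of 0.02 for Derl1 and 0.09 for Derl2 (limma adjusted p = 0.95 and 0.71). Against their mean, Derl3 changed by 2.94 more (exact permutation test, two-sided, p = 0.1, the smallest possible). The groups stood 2.44 apart in this difference within the array.

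Fkbp11 encodes an FK506-binding prolyl isomerase of the ER of secretory cells. Its probe, A_51_P130727, was dim, with intensities of 19.0 to 37.3, and gave -5.28, -4.76 and -4.99 in MRL mice and -5.02, -4.31 and -4.48 in LPR mice. The groups overlapped, as LPR 1 lay below MRL 2 and MRL 3. The change was 0.41 (SE 0.22, 95% interval -0.11 to 0.93, limma adjusted p = 0.25). Of its 5 relatives in the ER, Fkbp10, a chaperone of collagen, rose 1.68-fold (log2 change 0.75, SE 0.13, limma adjusted p = 0.013, and 0.051 without MRL 3). Fkbp2, Fkbp7, Fkbp9 and Fkbp14 gave changes of -0.08 to 0.24 and did not pass. The difference between Fkbp11 and its relatives was 0.22 (exact permutation test, two-sided, p = 0.3). RefSeq lists 2 promoters for Fkbp11, and 1 of them holds TGACGTG, the shorter core, on the minus strand right after the start (bases 251 to 257 of the window), as 2.01% of all promoters do.

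Sdc1 encodes syndecan-1 (CD138), the heparan sulfate proteoglycan by which plasma cells are stained, which epithelial cells also carry. The first 30 bases of its 3 probes are shown because they did not agree on the call. They lie on the plus strand of chromosome 12 in mm9, at 8799383 to 8799442, 8799275 to 8799334 and 8796227 to 8796286.
Sdc1 A_52_P479269: atctgtatggtgccccatttttggcggccc
Sdc1 A_65_P20200: ttgtttttgtttttaacctagaagaaccaa
Sdc1 A_55_P2842699: aattgttcctcctgaagatcaggatggctc

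A_52_P479269, the brightest, gave -1.65, -1.53 and -1.70 in MRL mice and -0.90, -0.42 and -0.58 in LPR mice, a change of 0.99 (SE 0.15), or 1.99-fold (limma adjusted p = 0.0062). A_65_P20200, the nearer of the other probes, gave -2.47, -2.39 and -2.56 against -1.76, -1.45 and -1.54, a change of 0.89 (SE 0.12, limma adjusted p = 0.0044). In both probes each LPR mouse stood above each MRL mouse by at least 0.63. A_55_P2842699, the farther one, was dim and gave -4.70, -4.89 and -5.30 against -4.65, -4.38 and -4.22, a change of 0.55 (SE 0.19, limma adjusted p = 0.107). Its groups stood only 0.05 apart. Of the other syndecans, Sdc3 rose 1.94-fold (log2 change 0.95, SE 0.12, limma adjusted p = 0.0032), and Sdc2 and Sdc4 gave -0.12 and -0.31 without passing. Sdc1 changed by 0.82 more than the mean of these 3, with no overlap of the groups (exact permutation test, two-sided, p = 0.1, the smallest possible).

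The rises of the 8 genes thus covered a wide range. Pou2af1, Jchain and Mzb1 lay between ranks 109 and 217 of 25805 genes by size of rise, Derl3 at 461, Prdm1 at 730 and Sdc1 at 1422, whereas Xbp1 and Fkbp11 lay at 2642 and 2709. All 8 changes were above 0, and 8 of 12 probes had no overlap of the groups, with all LPR mice above all MRL mice, as in 11% of all tested probes.

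The genes most alike in pattern were sought by the root mean square difference of the log2 profiles over the 6 arrays, each centred on its mean, among 16069 genes above background on all arrays. This measure follows the size of the change and the order of the mice alike. Mzb1 and Jchain were each among the 3 nearest genes of the other, with a difference of 0.31, and both were nearest to Cacna1s, with 0.22 and 0.26. Sdc1 was nearest to Tram2, Cnp and St6gal1 (0.05 to 0.08), and Prdm1 to H2-T23, Slc17a9 and Rnase6 (0.14 to 0.15). Derl3 was nearest to Tnfrsf13b (0.22), followed by Ptprcap and Zbp1. Pou2af1 was nearest to the antibody light chain gene Iglv1 (0.24), followed by Slpi and the heavy chain gene Igh-VJ558. Cd3d, a T cell gene, was the second nearest gene of Mzb1 (0.30) and Slpi the third of Jchain (0.32). Xbp1 was nearest to Gdf9, Manf and Sox18 (0.06 to 0.09), and Fkbp11 to Srpx, Mmp8 and Chst1 (0.08 to 0.11).

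**Figure D3:**
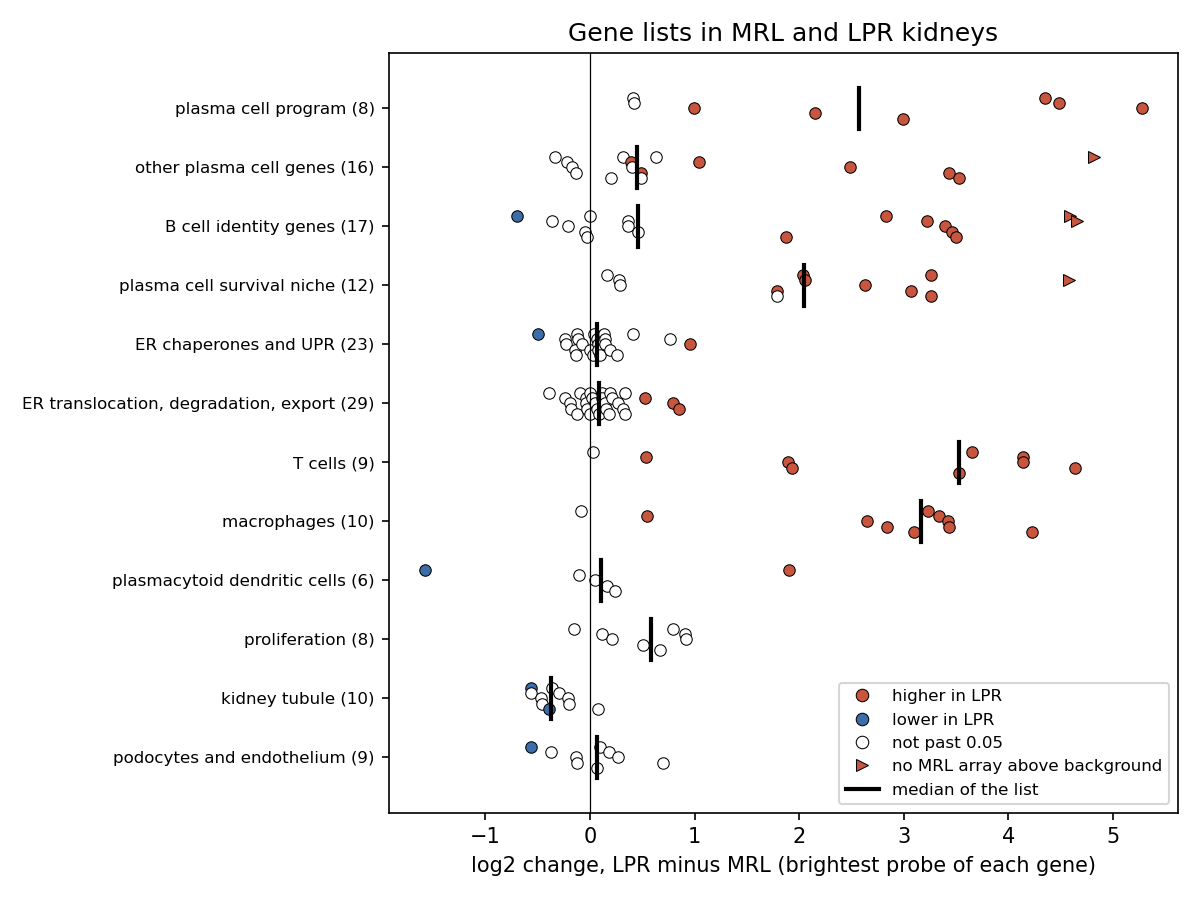
Log2 change, LPR minus MRL, of the brightest probe of each tested gene (horizontal axis) in 12 gene lists (vertical axis, with the number of tested genes), coloured by the call at an adjusted p of 0.05, with a bar at the median of each list and a triangle where no MRL array was above background. The medians of the plasma cell program (2.57), the T cells (3.53), the macrophages (3.17) and the survival niche (2.05) lie to the right, whereas both ER lists are centred near 0 (0.07 and 0.08).

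Other genes of plasma cells were split. Of 16 on the list, 7 were higher, 0 were lower and 9 did not pass, with a median log2 change of 0.45. The share of higher genes over all tested genes was 7.12%. The calls of Eaf2 and Ly6c2 (1.31-fold and 1.41-fold) were lost without any 1 of 6 and 5 mice. Both were named after their values were seen. The members that rose most encode surface receptors and a regulator. Tnfrsf17 encodes BCMA, the survival receptor of plasma cells, and was well above background in 3 LPR mice and no MRL mouse, at least 7.72-fold higher. Its probe passed the filter through the LPR arrays alone. Slamf7 rose 11.6-fold, Irf4, the factor that acts with PRDM1, rose 10.8-fold from -4.13, -3.57 and -4.64 to -1.36, -0.44 and -0.25, and the costimulatory receptor Cd27 rose 5.62-fold (limma adjusted p = 7.7e-05, 0.0013 and 0.00056). Slamf7 was above background in 1 of 3 MRL mice and Cd27 in 2 of 3, so their folds rest in part on MRL signals at background. The 9 that did not pass had changes between -0.34 and 0.64 by their brightest probes. For 3 of them, Tent5c, Trp53inp1 and Edem2, named after their values were seen, another probe was higher.

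Genes of the B cell state were measured beside them, since PRDM1 is known to repress several of them. Of 17 tested, 8 were higher, 1 was lower and 8 did not pass, where 7.12% of all tested genes were higher and 5.47% lower. Ciita, the regulator of antigen presentation genes, rose by 3.46 on the log2 scale (limma adjusted p = 3.4e-05), and Cd79a, a chain of the B cell receptor, rose 3.67-fold (limma adjusted p = 0.0019). Cxcr5 and Fcrla, above background in no MRL mouse and so tested only through the LPR arrays, were at least 11.1-fold and 6.33-fold higher. The regulators of the B cell state were split. Spib, which encodes an ETS factor of B cells, rose 10.5-fold (limma adjusted p = 2.1e-05), while Pax5, Bach2, Bcl6 and Ebf1 did not pass, with changes of -0.36, -0.0046, 0.45 and 0.37 (limma adjusted p = 0.23, 0.99, 0.26 and 0.054). The 1 gene counted as lower was Ms4a1 (CD20), whose 2 tested probes went in opposite directions. Its brightest probe, annotated to another transcript than the RefSeq one, fell by 0.70 on the log2 scale (limma adjusted p = 0.0497). That call was lost without any 1 of the 6 mice (0.065 to 0.135). The probe on the RefSeq transcript, above background in 2 of 3 MRL mice, rose 31.8-fold (limma adjusted p = 0.0028). Its log2 change of 4.99 was 4.27 without MRL 3 and 5.64 without MRL 2. Cd22, an inhibitory receptor counted among those that did not pass (-0.03), likewise had a dimmer probe, above background in 1 of 3 MRL mice, that rose 11.1-fold (limma adjusted p = 0.00016). Cd72 rose 9.35-fold, a call lost without any 1 of 5 mice. Spib, Ebf1, Ms4a1, Cd22 and Cd72 were named after their values were seen.

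Of 12 genes of the survival niche of plasma cells, 8 were higher, 0 were lower and 4 did not pass, with a median log2 change of 2.05. Of all tested genes, 7.12% were higher. The 8 include Tnfrsf13c, which was above background in no MRL mouse and passed the filter through the LPR arrays alone. The list holds receptors as well as ligands, and which cells carried the transcripts was not tested. The call of Ccr10 (3.44-fold, named after its values were seen) was lost without any 1 of 5 mice. The ligand BAFF (Tnfsf13b) rose 4.09-fold by its brightest probe (limma adjusted p = 0.00051), and of its 2 other probes 1 rose and 1 did not pass. Its receptor gene Tnfrsf13c (BAFF receptor) was at least 17.7-fold higher, although a second, dimmer probe gave a change of 0.03. Tnfrsf13b (TACI) rose 8.42-fold, from -3.27, -3.08 and -2.56 to -0.28, 0.37 and 0.22, by its brightest probe. Of its other probes, A_55_P1981972 changed 1.49-fold without passing (limma adjusted p = 0.090), and A_51_P106269 was above background in no MRL mouse and at least 3.26-fold higher. Selplg, the selectin ligand, rose 9.62-fold and Cd28 9.60-fold (limma adjusted p = 3.3e-05 and 0.00026). Cxcl12, a chemokine that holds plasma cells in the bone marrow, did not pass by its brightest probe (0.29, limma adjusted p = 0.24), while another was higher by 0.70 (limma adjusted p = 0.048), values that had been seen when it was named. Tnfsf13 (APRIL) carries no name on the array and was not analysed here.

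Most genes of ER folding did not pass. Of 23 genes of chaperones and the unfolded protein response, 1 was higher, 1 was lower and 21 did not pass. For comparison, 7.12% of all tested genes were higher and 5.47% were lower, so most of these did not pass either. The median log2 change of the list was 0.07. Sdf2l1, a cofactor of BiP, rose from -0.12, -0.23 and -0.02 to 0.30, 1.30 and 0.88, a 1.94-fold change with an adjusted p close to the threshold (limma, 0.048). Hyou1, an ER chaperone, fell by 0.49 in its brightest probe (limma adjusted p = 0.0499), while its 3 other probes did not pass. The call of Sdf2l1 was lost without any 1 of 5 mice and that of Hyou1 without any 1 of the 6, with adjusted p-values of up to 0.128 and 0.147. Across 22 other ways of processing the list gave 0 to 2 higher and 0 to 1 lower genes. Creld2 and Manf, which are secreted under ER stress, gave 0.77 and 0.41 (limma adjusted p = 0.11 and 0.33), and Ern1, the sensor that splices Xbp1 mRNA, gave 0.08 (0.62). The ER stress element was found in 7 of the 20 genes of this list with a promoter, and none of the 7 passed the test, unlike Derl3.

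Of 29 genes of ER translocation, degradation and export, 3 were higher, 0 were lower and 26 did not pass. Among all tested genes 7.12% were higher and 5.47% were lower. The list had a median of 0.08 and a range of 0 to 4 higher genes across other ways of processing. Sec11c, the catalytic subunit of the signal peptidase, rose 1.80-fold, Kdelr3, a receptor that returns ER proteins, 1.73-fold, and Sec24d, a coat protein of vesicles that leave the ER, 1.44-fold (limma adjusted p = 0.026, 0.027 and 0.038). Each of these calls was lost without any 1 of 4 or 5 of the 6 mice, with adjusted p-values of up to 0.116. Edem1 and Lman1, counted as not passing, had another probe that was higher, and Srp54a had one that was lower, all 3 named after their values were seen. Srpr, part of the receptor for nascent chains, gave -0.40 (limma adjusted p = 0.09). The letters TGACGTGG, as in the Pou2af1 promoter, were held by 2 of the 22 genes of this list with a promoter, Kdelr3 and Sec24d, a match looked at after the calls were known. On the other lists they were held by Txndc5, which did not pass (0.40, limma adjusted p = 0.088), and by Cd3e, which rose. Tubule cells are known to express such genes as well, and the share of each cell type in the signal was not tested.

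Most markers of T cells and macrophages were also higher in LPR mice. Among these mice, LPR 1 had the lowest mean level of the T cell genes but the highest of the macrophage genes. Of 9 T cell genes 8 were higher, with a mean log2 level of -2.40 to -2.16 in MRL mice and 0.26 to 0.49 in LPR mice. Cd2 rose 24.9-fold, Cd3g 17.7-fold, Cd3d 17.6-fold, Cd5 12.6-fold and Cd3e 3.71-fold. Of 10 macrophage genes 9 were higher, with a mean level of -0.86 to -0.39 in MRL mice and 1.83 to 2.21 in LPR mice, among them Fcgr1 with 18.8-fold and Adgre1 with 7.14-fold. Adgre1 gave -1.57, -1.76 and 0.68 in MRL mice, and its fold was 12.3 without MRL 3 (limma adjusted p = 7.8e-05), whereas the call was lost without any 1 of the other 5 mice (0.069 to 0.086). The calls of Cd4, Csf1r and Marco, named after their values were seen, were lost without any 1 of 6, 5 and 4 mice. All tested markers of both lists were above background on all 6 arrays. Their part in the rise of the plasma cell genes was not tested. Plasmacytoid dendritic cells also use some of the 8 genes, and of 6 of their markers Bst2, an interferon-induced gene, rose 3.75-fold, Cox6a2 fell by 1.58 on the log2 scale (limma adjusted p = 0.013), and Siglech, Tcf4, Runx2 and Ccr9 did not pass. Siglech, their defining receptor, gave a change of -0.10.

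Dividing cells and kidney cells gave smaller changes. Of 8 proliferation genes none passed by its brightest probe, with Mki67 at 0.91, Top2a at 0.92, Birc5 at 0.80 and Aurkb at 0.67 (limma adjusted p = 0.17, 0.19, 0.28 and 0.22). Of the 3 other Top2a probes, A_55_P2713705 rose by 0.90 on the log2 scale (limma adjusted p = 0.0080) and the others did not pass. MRL 1 was the lowest mouse for Mki67, with -1.62 against -0.40 to 0.49 in the others. Of 10 tubule genes, Slc5a2, a glucose transporter, fell by 0.57 and Lrp2 (megalin, named after its values were seen) fell by 0.39 on the log2 scale (limma adjusted p = 0.027 and 0.049), and 8 did not pass. No other probe of Slc5a2 or Lrp2 passed. The median log2 change of the tubule genes was -0.38, against -0.12 over all tested genes. Of 9 podocyte and endothelial genes Kdr fell by 0.57 (limma adjusted p = 0.032), and the other 8 did not pass. The calls of Slc5a2, Lrp2 and Kdr were lost without any 1 of 4, 6 and 5 mice, with adjusted p-values of up to 0.0965, 0.154 and 0.102.

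**Figure D4:**
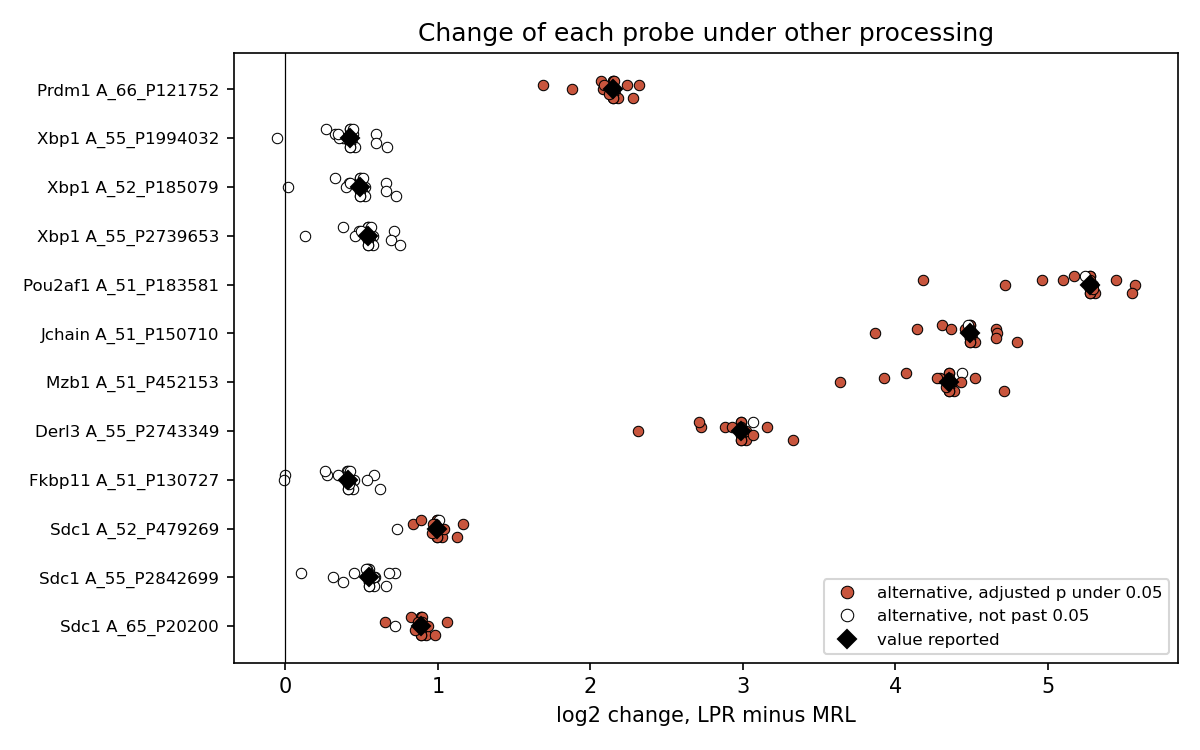
Log2 change, LPR minus MRL (horizontal axis), of each of the 12 probes (vertical axis) as reported (diamond) and under 21 other ways of processing (circles, filled where the adjusted p is under 0.05). Prdm1 passed under all of them and Xbp1 and Fkbp11 under none.

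Under 21 other ways of processing, the change of Pou2af1 stayed between 4.18 and 5.57, that of Jchain between 3.87 and 4.80, that of Mzb1 between 3.64 and 4.71, that of Derl3 between 2.31 and 3.33 and that of Prdm1 between 1.69 and 2.32. The brightest Sdc1 probe gave 0.73 to 1.16. Without LPR 1, the 3 Xbp1 probes changed by 0.67 to 0.75 and Fkbp11 by 0.62, and none of them passed (limma adjusted p = 0.066 to 0.093 for Xbp1 and 0.092 for Fkbp11).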

How the data were processed

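TA used total RNA from whole kidney of 3 MRL and 3 LPR mice. On the isolation of RNA the sources differ (Trizol in the paper, RNeasy Mini Kit in the labels). Cy3-labelled RNA was hybridized to 6 single-colour Agilent SurePrint G3 mouse arrays on 1 slide, and probe positions are on mm9. The deposited intensities were made by the authors with Agilent Feature Extraction 12.0.3.1, with background subtracted and no normalization between arrays. The authors also deposited each intensity as a ratio to the 75th percentile of its array, used as an alternative.

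The intensities were taken to log2, the 75th percentile of 59305 spots that are not controls was subtracted, outlier spots were left out, and spots of a probe were averaged. Probes well above background on at least 3 arrays were tested by limma 3.58.1 (R 4.3.3), and p-values were adjusted by Benjamini-Hochberg over 39924 probes. The brightest probe stands for a gene. Where no MRL array was above background, a fold is a lower bound against the lowest signal above background. Such a probe passed the filter through the LPR arrays alone. No p is given for it, although its call stays in the counts. All 12 member probes matched the current RefSeq symbol by accession. The exact permutation test over mice was used for differences between relatives. Labels name separate mice.

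The members, gene lists and tests were chosen with earlier results of these data known. Named are the 8 genes, their relatives, and of each list up to 4 genes with the largest change plus a few set markers. A set marker that is not reported here stays in the counts of its list. The alternatives were normexp (offset 50), quantile, median and detected-probe scaling, the authors' ratios, 2 other filters, a floor, outliers kept, an intensity trend, the slide column, the replicate number, the methods' t-test, the mean of probes, each mouse left out, and no shift. Simulated data of 39924 probes held 200 changed probes. Of these, 49 of 100 changed by 1 and 84 of 100 changed by 2 on the log2 scale were recovered, with 7 false calls. Far more probes were called in the data (2606 higher and 2462 lower), so these shares need not hold there. Promoters of 300 bases (250 before the start) came from RefSeq (GRCm38.p6), and both strands were searched for TGACGTGG, for its shorter forms TGACGTG and ACGTG, for the octamer ATGCAAAT, for the PRDM1 core GAAAGTG with its shorter form GAAAGT, and for CCAAT with CCACG after 9 bases. The shorter forms overlap the longer ones. The promoter table held 7 of the 8 genes, and none of these 7 held the octamer (1.74% of all promoters) or the PRDM1 core (4.81%, and 14.3% for the shorter form). ACGTG was held by 4, against 19.6% of all promoters. Figures used matplotlib 3.10.9 in python 3.11.15.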

Additional observations from a re-analysis of the deposited data

How the results depend on the processing

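The counts of 6 higher genes and 7 higher probes were the same under 20 of 22 and 19 of 21 alternatives, and 0 probes were lower under any. The methods' t-test was adjusted here by Benjamini-Hochberg over all tested probes. The paper describes no such adjustment and tested genes selected at 10-fold or more. On linear values the adjusted t-test called 1 gene (Prdm1) and 2 probes. Its adjusted p was 0.0603 to 0.113 for Pou2af1, Jchain, Mzb1, Derl3 and the brightest Sdc1 probe. The slide column in the fit, which sets LPR 1 alone against the MRL mice, left 5 genes and 5 probes, without Sdc1, and the changes of Xbp1 (brightest probe, -0.0572) and Fkbp11 (-0.00963) turned negative. Fkbp11 also turned negative with normexp (-0.000855). None of these 3 values passed, and the cause was not tested.

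Of the genes on the other lists, 48 were higher, with 34 to 53 under the alternatives, and 6 were lower. The lower count was 11 with normexp, 10 with an intensity trend, 3 with quantile normalization, a median shift or a percentile over detected probes, and 1 with no filter, the slide column, either form of the methods' t-test or no shift, the last a setting added after the data were seen. Leaving out a mouse gave 1 to 4. The cause was not tested.

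Over all probes, 2606 were higher and 2462 lower. The split was 2532 to 4498 with normexp, 2599 to 321 with no shift (which moved the median log2 change from -0.14 to 0.03), 2150 to 1093 with no filter, 1458 to 463 with the slide column, and 1736 to 1386 and 1444 to 1354 with the methods' t-test on log2 and on linear values. It was 2614 to 1966 with a median shift and 2660 to 1800 with a percentile over detected probes. Without 1 mouse, 1958 to 2370 were higher and 760 to 2269 lower.

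With the replicate number as a block (replicate block), the same count of 6 genes and 7 probes was higher, the lower list genes were 2, and the split over all probes was 2199 to 1117. Mice of the same number did not deviate together throughout (r = 0.12, 0.02 and 0.01), and nothing in the labels pairs them. Of the 3 pairs, only the first held the best partner of its own number. The number of arrays limits the precision, and in the simulated data fewer of the probes changed by 1 than of those changed by 2 on the log2 scale were recovered.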

Other observations

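The antibody genes themselves could not be followed by the symbols of the constant regions, since none of the 12 constant genes listed carries its name on the array. Taking instead every probe that the array annotates as an immunoglobulin heavy, kappa or lambda gene, a choice made after the annotation was seen, 205 of 235 probes were tested. LPR mice had higher values in 191 of these by limma, where 6.53% of all 39924 tested probes were higher. Lower values were found in 0, and 14 were not past the threshold. The median log2 change was 5.13, and 28 were well above background in no MRL mouse. A probe of this kind passes the filter only through the LPR arrays. The count and the median thus rest in part on MRL signals at background. Immunoglobulin probes share sequence among members of a multigene family, so a probe need not stand for 1 gene.

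Tent5c (Fam46c on the array), which encodes a poly(A) polymerase that is known to stabilise antibody mRNA in plasma cells, was named after its values were seen because its probes disagreed. Its brightest probe, annotated to another transcript, gave a change of -0.34 (limma adjusted p = 0.12). A_51_P447976, on the RefSeq transcript, gave 0.17, -0.40 and -0.37 in MRL mice and 1.35, 2.06 and 2.28 in LPR mice, a change of 2.09 (SE 0.27, limma adjusted p = 0.0036), and A_65_P00912 gave 2.13 (SE 0.27, limma adjusted p = 0.0034). In both of these probes LPR 1 was again the lowest LPR mouse.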
